A study of Mus musculus with 6 samples.

Results

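Dividing neutrophil precursors were a population of 4212 cells among the 85339 cell barcodes kept from injured mouse entheses, or 4.94%. They were chosen by their measured unique molecular identifiers (UMIs, counts of captured mRNA molecules). A barcode entered when it held at least 1 UMI of the division genes Mki67 and Top2a, at least 10 UMIs in all of the granule genes Fcnb, Elane, Mpo, Prtn3, Camp and Ngp, and at least 1 UMI of Cebpe or Fcnb. It was left out when Cd79a (B cells) or Adgre1 (macrophages) was detected, or when collagen transcripts Col1a1, Col1a2 and Col3a1 made up 0.5% of its UMIs or more. Kept barcodes had at least 1000 UMIs, at least 200 genes and at most 10% mitochondrial UMIs.

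The enthesis is the site where tendon inserts into bone. Single-cell RNA sequencing was performed on it 7 days after the supraspinatus tendon had been cut and sutured back through tunnels in the bone. The mice were 12 to 14 weeks old. There were 3 libraries from wild-type C57BL/6 mice and 3 from mice with a global Nlrp3 knockout, every library carried the same injury, and entheses were pooled without a stated number of animals per library. The genotype field of knockout replicates 2 and 3 named Nlrp4 and Nlrp5, whereas their titles named Nlrp3. Female-specific Xist was found in the knockout libraries and Y-linked genes in the wild-type libraries, so genotype and sex cannot be told apart in any comparison of the groups. The source of the mice cannot be told apart from genotype either. The paper names the Shanghai Laboratory Animal Center for wild-type mice and Cyagen for the knockout.

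Neutrophils are normally made in the bone marrow. Promyelocytes divide and fill primary (azurophil) granules with Mpo, Elane, Prtn3 and Ctsg, and the myelocytes that follow divide while they fill secondary granules with Camp, Ngp, Ltf and Lcn2 under the transcription factor C/EBP epsilon (Cebpe). Division ends before gelatinase granules (Mmp9) and the receptors of circulating neutrophils are made. Fcnb (ficolin B) marks the dividing stages, Mki67 encodes the proliferation antigen Ki-67 and Top2a encodes topoisomerase II alpha, used in replication and mitosis.

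The promoters of 3 of the 4 primary granule genes that define the stages are shown because they shared a motif. That these genes were high in the same cells and lower in the later stages described here was fixed by that definition. RefSeq sequences of GRCm38.p6 were searched over the 250 bases before each start for the 8 letters GAGGAAGT, an ETS-type motif like that bound by PU.1, on both strands. The motif was chosen after the sequences had been seen, and is in capitals on the gene's own strand.
Elane (chr10:79886211-79886250, + strand): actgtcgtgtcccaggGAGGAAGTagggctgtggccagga
Prtn3 (chr10:79879556-79879595, + strand): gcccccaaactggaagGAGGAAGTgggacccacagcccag
Mpo (chr11:87793544-87793583, + strand): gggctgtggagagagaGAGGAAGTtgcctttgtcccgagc
It began 85 bases before the start of Elane, 95 before Prtn3 and 224 before Mpo. Elane and Prtn3 are neighbours on chromosome 10 and Mpo lies on chromosome 11. Of the 8 primary granule genes with a sequence, 4 held the motif (the other was Ctsc, on the opposite strand, whereas Ctsg held none), against 0 of 9 secondary granule genes and 802 of all 32851 promoters (2.44%). Because the motif was chosen with sequences seen, these counts are no test of enrichment. A match of letters describes the sequence and does not show that a factor binds there.

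Each library held between 97042713 and 134901999 UMIs. Knockout replicate 1 stood apart, with 22048 kept barcodes of a median 2069 UMIs, whereas the other 5 had 9903 to 15515 kept barcodes with medians from 4874 to 7421. Only 1 cell barcode of the members occurred in more than one library. Members were deeply covered: their median UMI count was 13445, 12325 and 13872 in wild-type replicates 1 to 3 and 7537, 11427 and 9476 in knockout replicates 1 to 3. Their median mitochondrial share was 0.599%, 0.716% and 0.787% in the wild-type libraries and 0.977%, 1.45% and 1.12% in the knockout libraries. The groups did not overlap in it, and its part in the differences between genotypes was not tested.

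All 5 markers of the population belonged to the rule, so their detection describes the members and is no check of the label. Cebpe was detected in 80.2 to 93.3% of the members of each library and Fcnb in 73.3 to 84.2%, whereas dividing monocytes and macrophages of the same libraries, 1844 barcodes with a median of 6088 to 12033 UMIs per library, showed them in 1.66 to 5.96% and 0.332 to 5%. Elane was detected in 48.4 to 62.7% of members (5.98 to 27.1% of dividing monocytes and macrophages) and Mpo in 34.9 to 51.3% (5.32 to 14.4%). The figures in brackets are the detection in cells outside the population, and the part of free RNA, shared expression and doublets in them was not tested. These comparison cells had a division UMI, at least 3 UMIs of Csf1r, Adgre1 and C1qa in all, and under 10 UMIs of the 6 granule genes. That limit held down Fcnb, Elane and Mpo in them in advance, whereas Cebpe was not part of it. Mki67 was detected in 81.8 to 91.7% of members. In 643 members (15.3%), the division call rested on a single UMI.

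Few barcodes lay close to the granule limit. Levels in groups of cells are given in CPM, the UMIs of a gene per 1000000 UMIs of those cells. The 35 members with 10 to 12 granule UMIs had 129 CPM of Elane, 155 of Ngp and 47.8 of Cebpe, and the 48 barcodes just outside, with 7 to 9 granule UMIs, had 73.5, 55.5 and 40.5. Genes of monocytes were found on both sides of the limit, with Ly6c2 at 925 and 852 CPM, Csf1r at 112 and 99.0 and Irf8 at 120 and 172. The median member held 9.88% of its UMIs in the 6 granule genes. Free RNA, taken from barcodes with at most 100 UMIs, held 0.627 to 1.86% of its UMIs in them. The limit was a count of UMIs, and 454 members (10.8%) passed it with under 1% of their UMIs in these genes, below the upper end of that range.

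Of the 10 genes with most UMIs in the members, S100a9 and S100a8, the subunits of the antimicrobial protein calprotectin, led with 75854 unscaled CPM (55264 to 93374 over the 6 libraries) and 63792 CPM (42205 to 88133). The cathelicidin gene Camp followed with 40371 CPM, then Tmsb4x (actin-sequestering thymosin) with 21905 and Ngp with 20134 CPM. Lcn2 (an iron-siderophore trap) had 7508, Lyz2 (lysozyme) 6806, Elane (neutrophil elastase) 5349, Actb 5031 and H2afz (histone H2A.Z) 4937 CPM. The libraries were made from mRNA 3′ ends, so these counts do not grow with transcript length.

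Within the members the granule genes separated into stages. The UMIs of Elane, Mpo, Prtn3 and Ctsg were set against those of Camp, Ngp, Ltf and Lcn2, and members were called primary-led when the first made up at least 90% of the 8 genes, secondary-led when they made up under 10%, and mixed in between. Of the 4212 members, 603 (14.3%) were primary-led, 476 (11.3%) mixed and 2679 (63.6%) secondary-led. A further 454 (10.8%) held under 1% of their UMIs in granule genes and were kept apart. Most members lay at either end of this scale with a thinner bridge between. Median UMI counts were 22558 in primary-led, 17040.5 in mixed and 9449 in secondary-led members.

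**Figure D1:**
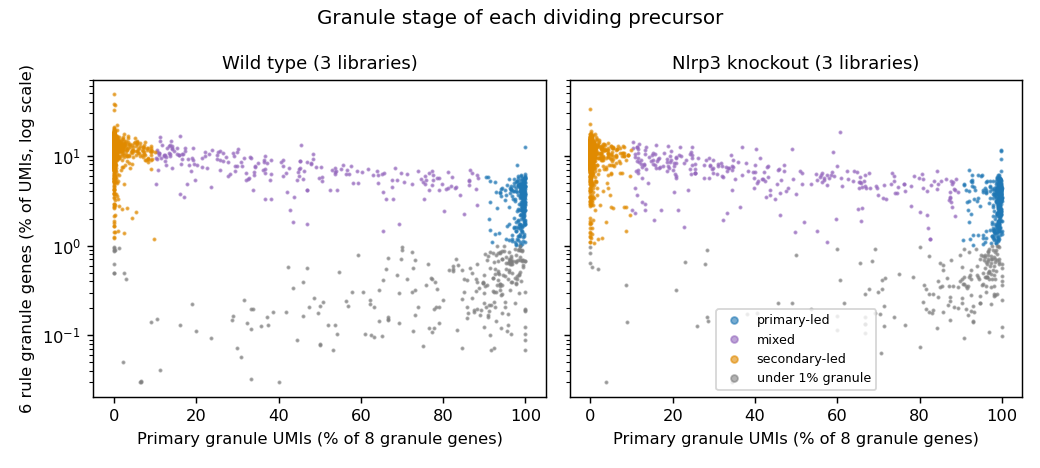
Each point is 1 member; the x axis gives primary granule UMIs as a percentage of the 8 granule genes and the y axis (log scale) the 6 granule genes of the rule as a percentage of all UMIs. Both genotypes hold dense groups at either end, the 603 primary-led and 2679 secondary-led members, joined by 476 mixed members.

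The stages are described by the mean CPM over the 6 libraries, and no test was made because they were defined from these cells. CPM add up to a fixed total, so genes of very high level lower the CPM of all others. S100a8 and S100a9 stood at 7717 and 7882 CPM in primary-led members and at 54280 and 67193 CPM in mixed ones. The part of this in the stage differences of other genes was not tested. Elane stood at 13469 CPM in primary-led members, 12688 in mixed and 367 in secondary-led ones. Ngp stood at 91.9, 8472 and 39728 CPM in the same order, and Ltf (lactoferrin) at 10.6, 288 and 5309 CPM. Fcnb was highest in the middle, with 352 CPM in primary-led, 1604 in mixed and 767 in secondary-led members. Elane and Ngp defined the stages or the rule. Fcnb, like Cebpe below, helped to select the members, but the split did not use it and did not fix its pattern. The required UMI of Cebpe or Fcnb, and that of a division gene, was harder to meet in the less deeply covered secondary-led members. The part of this in their levels was not tested.

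Genes outside the split differed along it too, and the examples given here were picked after their values had been seen. Ms4a3, a marker of granulocyte and monocyte progenitors, had 1894 CPM (1664 to 2214 over the libraries) in primary-led members, 1430 (1242 to 1612) in mixed and 255 (198 to 319) in secondary-led members. Prss57, another azurophil serine protease, had 325, 280.5 and 42.7 CPM. For both genes, every library's secondary-led value lay below every primary-led value. The 6 subunit genes of the NADPH oxidase, which makes superoxide, summed to 2039 ± 268 CPM (SD, n = 6 libraries), 4425 ± 238 and 6183 ± 588. Its catalytic subunit Cybb stood at 168, 704 and 1593 CPM.

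Some transcription factors and a growth factor receptor differed in the same order, whereas the 12 listed granulopoiesis factors as a sum did not. That sum was 1909 ± 191 CPM in primary-led and 2154 ± 166 CPM in mixed members, with Cebpd at 254 and 398 CPM. Myb, a factor of dividing progenitors, was at 292 ± 88.0 CPM in primary-led members, 108 ± 30.6 in mixed and 36.5 ± 11 in secondary-led ones. Gfi1, a repressor needed for the neutrophil lineage, was at 50.02, 37.9 and 14.9 CPM, and Kit, the stem cell factor receptor, at 73.7, 41.5 and 20.8 CPM. For both genes the ranges over libraries overlapped between primary-led and mixed members. They were 30.3 to 66.3 and 24.2 to 58.8 CPM for Gfi1 and 36.3 to 101 and 20.8 to 59.6 CPM for Kit. Cebpe had the opposite order, with 233 ± 45.2, 535 ± 77.4 and 559 ± 56.9 CPM. The ranges over libraries for Cebpe in mixed and secondary-led members overlapped (457 to 634 and 463 to 619 CPM). A set of 10 ribosome biogenesis genes, led by the nucleolar chaperone Npm1, summed to 4181 ± 457, 1676 ± 318 and 629 ± 56.5 CPM.

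Division UMIs were required of every member, and the cyclins differed between stages. Cdk6, a G1 kinase, was at 256 CPM in primary-led and 25.9 CPM in secondary-led members, and its partner cyclin D2 (Ccnd2) at 86.0 and 4.49 CPM. Cyclin D3 (Ccnd3) was at 91.8 and 284 CPM, and the Cdk4 and Cdk6 inhibitor p19 (Cdkn2d) at 57.5 and 280 CPM. Over the 6 libraries, the ranges of these 4 genes did not overlap between primary-led and secondary-led members. Over 24 DNA replication genes the sum was 2168 ± 218 CPM in primary-led, 2367 ± 256 in mixed and 1644 ± 244 in secondary-led members. Over 24 mitosis genes it was 3029 ± 381, 3361 ± 536 and 4111 ± 731 CPM. Between primary-led and secondary-led members the ranges over libraries overlapped for both sums (1872 to 2403 against 1373 to 1994 CPM for replication, 2626 to 3622 against 3187 to 4919 CPM for mitosis).

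The 454 members under 1% granule UMIs are described apart. They carried 1707 ± 173 CPM of the monocyte antigen gene Ly6c2 (1517 in primary-led, 1356 in mixed and 632 in secondary-led members), 254 CPM of Irf8 (against 73.5 in primary-led and 8.82 in secondary-led members) and 202 CPM of Klf4 (24.7 and 19.1), both factors of the monocyte lineage. Cebpe was at 38.4 CPM and Elane at 1012 CPM in them. Their expression went against the name of the population, and no other cell type name is given to them. They made up 12.5%, 10.97% and 15.4% of the members in the wild-type libraries and 9.12%, 8.30% and 8.93% in the knockout libraries. The groups did not overlap, and an exact two-sided permutation test gave p = 0.1, the smallest that 3 against 3 libraries allow.

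Barcodes that passed the same rule but had no Mki67 or Top2a UMI numbered 4899, and mature neutrophils numbered 5555. The latter had no division UMI, under 10 granule UMIs, at least 20 UMIs of S100a8 and S100a9 and at least 2 UMIs of Csf3r, Cxcr2, Il1r2 and G0s2. The non-dividing cells had a median of 3394.5 to 4668 UMIs per library, below the members, so a division UMI had less chance of being seen in them. Their secondary granule genes were high, with 52052 CPM of Camp, 32523 of Ngp and 7172 of Ltf (74921, 39728 and 5309 in secondary-led members). Their Fcnb was lower than in secondary-led members (200 against 767 CPM) and their primary granule genes summed to more (6435 against 3276 CPM), with Elane at 1079 against 367 CPM. The definition of secondary-led members held down Elane, Mpo, Prtn3 and Ctsg, and the non-dividing cells did not have to meet it. Other genes of the sum, outside that definition, went in both directions. Srgn was higher in the non-dividing cells (2017 CPM) than in secondary-led members, whereas Ms4a3 (165 CPM) and Prss57 (28.1 CPM) were lower. Over all members Elane was at 5349 CPM. Mmp8 and Cxcr2 separated the non-dividing cells from secondary-led members. Mmp8, the neutrophil collagenase, was at 90.04 ± 25.1 CPM in secondary-led members, 1052 ± 294 CPM in non-dividing cells and 930 ± 604 CPM in mature neutrophils. Cxcr2, the chemokine receptor used for release from marrow, was at 38.9 ± 6.99, 141 ± 17.1 and 602 ± 136 CPM, the last a level that the gate on mature neutrophils used. Mitosis genes summed to 485 ± 86.2 CPM in the non-dividing cells. Cxcr4, the receptor that holds cells in marrow, was at 111 ± 35.9 CPM in secondary-led members, 103 ± 28.2 in non-dividing cells and 319 ± 52.8 in mature neutrophils.

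**Figure D2:**
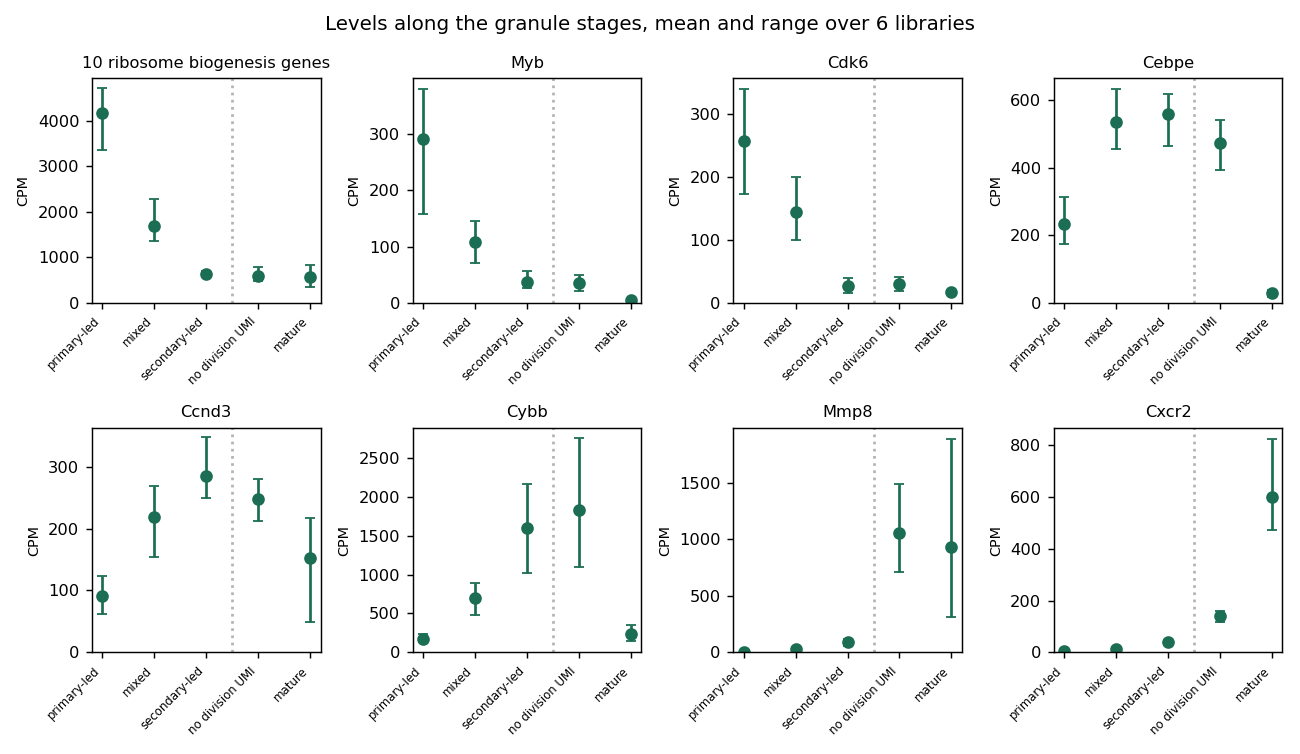
CPM (y axes, linear, from 0) of the ribosome biogenesis sum and 7 genes in the 3 granule stages of members, in cells of the same rule with no division UMI and in mature neutrophils; points are means and bars the range over 6 libraries, with a dotted line where division ends. Myb, Cdk6 and ribosome biogenesis were highest in primary-led members, Cebpe, Ccnd3 and Cybb in mixed or secondary-led members or in cells without a division UMI, and Mmp8 and Cxcr2 (Cxcr2 is one of the genes that selected mature neutrophils) were highest past the dotted line, with Mmp8 at 90.04 CPM in secondary-led members and 1052 CPM in cells without a division UMI.

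RNA of other cell types was found at low levels in many members. At least 3 markers of 1 of 9 other types, the monocyte and progenitor lists not counted, were detected in 1499 members (35.6%). This was so in 24.5%, 31.4% and 22.9% of wild-type members by library and in 23.6%, 46.9% and 50.9% of knockout members. Mesenchymal markers (8 genes) summed to 233 to 346 CPM in wild-type and 238 to 441 CPM in knockout members, against 6843 to 15212 CPM over all kept barcodes. Macrophage markers summed to 137 to 277 and 148 to 512 CPM, against 2487 to 5466 CPM. No marker of the 11 other lists was at 0 over all members. At least 3 monocyte markers, which precursors share in part, were detected in 1085 members (25.8%), and their sum was nearer to the level of all barcodes, at 1524 to 1754 and 1445 to 1740 CPM against 2198 to 4044 CPM. Red cell genes summed to 4.38 to 497 CPM by library and dendritic cell genes to 140 to 345 CPM, and the remaining 6 lists to between 6.08 and 194 CPM. Eosinophil markers were the exception to lower levels in members, at 17.9 to 194 CPM against 4.84 to 55.3 CPM over all kept barcodes and higher in the members of all 6 libraries, and mast cell and basophil markers were higher in the members of 1 library. No doublet caller was run.

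The first comparison asked whether loss of Nlrp3 went with a different number of dividing precursors in the injured enthesis. They were 6.70% (95% Wilson interval 6.27 to 7.14), 3.47% (3.19 to 3.77) and 6.69% (6.22 to 7.20) of kept barcodes in wild-type replicates 1 to 3. They were 1.44% (1.29 to 1.61), 9.28% (8.77 to 9.81) and 5.59% (5.22 to 5.99) in knockout replicates 1 to 3. The intervals cover counting error only, and the knockout libraries held both the lowest and the highest value. The means were 5.62 ± 1.86% (SD, n = 3) and 5.44 ± 3.92%, a difference of -0.182 percentage points (exact two-sided permutation test, p = 1, smallest possible 0.1). Without knockout replicate 1 the difference was 1.82 percentage points, and without barcodes holding markers of another type it was -1.27. A sample of tissue gives shares only, so a change in the number of cells cannot be told apart from a change in the others.

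Barcodes of other marrow lineages were counted beside them. Those with at least 3 UMIs of the early B cell genes Vpreb1, Igll1, Dntt and Rag1 made up 2.39%, 1.12% and 7.01% of the wild-type libraries and 0.531%, 4.91% and 2.102% of the knockout libraries. The 2 libraries with the fewest dividing precursors, wild-type replicate 2 and knockout replicate 1, also had the fewest early B cells. Red cell barcodes, with at least 20% hemoglobin UMIs, did not follow that order, at 0.285%, 0.0516% and 0.0707% against 0.204%, 0.871% and 0.119%. Nor did barcodes with Kit and Cd34, under 10 granule UMIs and no collagen, Pecam1 or Cdh5 UMI. They numbered 3, 3 and 5 against 4, 0 and 0, with none in knockout replicate 2, which had the highest share of dividing precursors. These gates were set after the data had been seen, and the part of marrow in the harvested tissue was not tested.

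Among barcodes of the neutrophil lineage (members, non-dividing cells and mature neutrophils), dividing precursors made up 23.8%, 17.8% and 28.3% in wild-type and 23.1%, 45.5% and 38.2% in knockout libraries. The groups overlapped through knockout replicate 1. The means were 23.3 ± 5.28% and 35.6 ± 11.4%, 12.3 percentage points higher in the knockout (exact two-sided permutation test, p = 0.3). Without knockout replicate 1 the difference was 18.5 and without knockout replicate 2 it was 7.37 percentage points (exact permutation p = 0.1 and 0.5). The mature neutrophils in this denominator numbered 1556, 1816 and 899 in the wild-type and 576, 365 and 343 in the knockout libraries. Their median was 1414 to 1606 UMIs per library, near the limit of 1000 UMIs, so the shares depend on that limit. With at least 2000 UMIs they numbered 309, 522 and 238 against 110, 88 and 41. The shares of dividing precursors were then 37.5%, 31.4% and 39.6% against 35.2%, 51.7% and 45.9%. When every barcode was thinned to 1000 UMIs, which left none out, the shares were 8.56%, 4.88% and 11.5% against 12.01%, 23.5% and 19.8%. The groups then no longer overlapped, and the exact permutation test gave p = 0.1, its smallest value. The difference was 5.78 percentage points without barcodes holding markers of another type and 8.12 with at least 2000 UMIs (p = 0.5 and 0.3 by the same exact test).

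**Figure D3:**
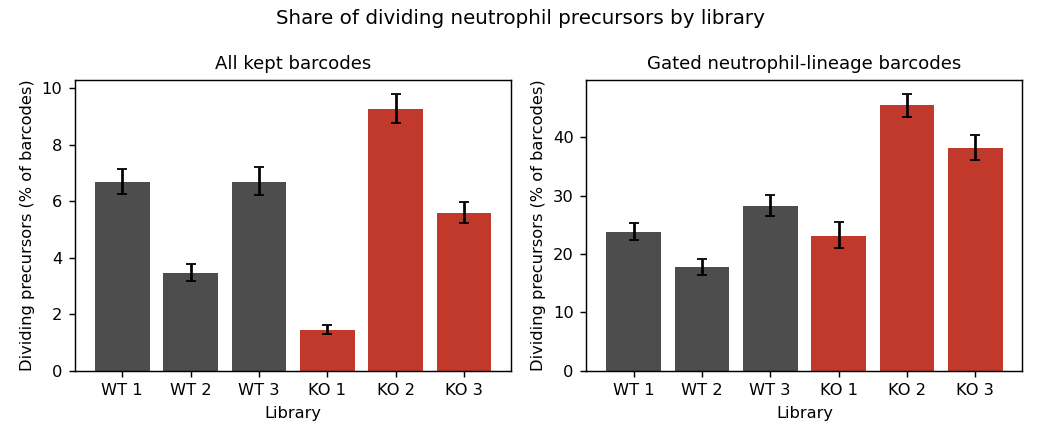
Bars give the share of dividing precursors in each library (WT, wild type, grey; KO, Nlrp3 knockout, red), as % of all kept barcodes on the left and % of neutrophil-lineage barcodes on the right; error bars are 95% Wilson intervals for counting error. Knockout libraries span 1.44 to 9.28% on the left and 23.1 to 45.5% on the right, overlapping the wild-type libraries in both.

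No difference between the genotypes was detected in the proportions of the 3 granule stages. Primary-led members made up 8.98%, 15.6% and 14.9% of wild-type members and 12.9%, 20.1% and 10.9% of knockout members (exact permutation test, two-sided p = 0.8). Secondary-led members made up 68.9%, 61.3% and 59.4% against 65.7%, 59.9% and 67.5% (p = 0.9 by the same exact test), and mixed members 9.57%, 12.1% and 10.3% against 12.3%, 11.7% and 12.7% (p = 0.2). All of these ranges overlapped.

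The second comparison asked which genes differed between the genotypes inside the dividing precursors. UMIs were summed over the members of each library and tested with edgeR's quasi-likelihood test over 11439 genes, with Benjamini-Hochberg adjustment and a threshold of 0.05. In this comparison, levels per library over all members are CPM scaled by TMM factors, whereas the levels given earlier and those in single stages, free RNA and other cells are unscaled CPM, and fold changes are log2 of knockout over wild type ± standard error. At this threshold 53 genes passed (0.463%), of which 18 were higher (0.157%) and 35 lower (0.306%) in the knockout, and 1947 genes had an unadjusted p under 0.05. DESeq2 called 343 genes, 72 higher and 271 lower, and 101 genes passed by edgeR without barcodes holding markers of another type. With library totals in place of TMM factors, which moved the median over all genes from 0.01 to 0.25, the split was 38 higher and 27 lower. Without wild-type replicate 3, 1272 genes passed, and without knockout replicate 2 or 3, 30 or 31 genes.

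The targeted gene was checked first. Nlrp3 (ENSMUSG00000032691, chr11:59541568-59566956), the sensor of the NLRP3 inflammasome, was at 46.0, 99.0 and 78.2 CPM in the wild-type libraries. No UMI was found in the knockout members, against 2050 UMIs in the wild-type members. It was at least 139-fold lower, as the wild-type mean over the mean CPM that 3 counts per knockout library would give (edgeR adjusted p = 8.01e-05). Within wild-type libraries Nlrp3 in the members lay below its level in free RNA (93.6 to 174 CPM) and far below mature neutrophils (921 to 1888 CPM). The other 10 inflammasome genes did not pass, among them Il1b with 166, 287 and 262 CPM against 313, 75.8 and 121 CPM (-0.52 ± 0.42, adjusted p = 0.547). Those ranges overlapped.

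Of the 53 genes, 7 lay on the X chromosome, all higher in the knockout, and 4 on the Y chromosome, all lower. Xist, the RNA that silences an X chromosome in female cells, was at 0.178, 0 and 0.0957 CPM in the wild-type and 612, 726 and 629 CPM in the knockout libraries. Ddx3y, Eif2s3y, Uty and Kdm5d had no UMI in knockout members. Another 10 genes, Nlrp3 included, lay within 20 Mb of Nlrp3 on chromosome 11, where 2.85% of the 351 genes tested passed, against 0.288% of 10746 genes elsewhere, outside X and Y. Uqcrq, a subunit of respiratory complex III, and Rnf187, a ubiquitin ligase gene, were among them. Uqcrq was at 552, 571 and 357 CPM against 255, 191 and 200 CPM (-1.20 ± 0.19, adjusted p = 0.0204), and Rnf187 at 60.7, 64.2 and 52.7 against 24.98, 34.9 and 32.1 CPM (-0.92 ± 0.14, adjusted p = 0.0187). Uqcrq lost its call without wild-type replicate 1 or 2 or knockout replicate 2 or 3 (adjusted p = 0.0518 to 0.153), and Rnf187 without any library but wild-type replicate 3 (0.0542 to 0.126) and with library totals (0.0927). The remaining 31 genes lay elsewhere, with 6 higher and 25 lower, and 1 had no position in the annotation. Among those 31 was Ccl6, described below, which also lay on chromosome 11 but outside the 20 Mb limit. Whether its position on the chromosome of Nlrp3 had a part in its difference was not tested.

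Chil3 had the most UMIs of the genes that fell. It encodes the chitinase-like lectin Ym1, made by neutrophil precursors and some macrophages (ENSMUSG00000040809, chr3:106147554-106167564). Chil3 was at 4749, 3593 and 3089 CPM in the wild-type libraries and 776, 657 and 867 CPM in the knockout libraries. Each wild-type library was above each knockout library. The difference was -2.31 ± 0.18 (adjusted p = 1.32e-04). Chil3 kept its call in each of 12 alternatives checked for it, from -2.44 to -2.08. Not every alternative was among these 12, and primary-led members alone were left out of them. In secondary-led members alone it stood at 6792, 6374 and 6309 unscaled CPM against 1471, 1769 and 1735 CPM (-2.25). Free RNA held 310 to 832 CPM in wild-type and 80.2 to 168 CPM in knockout libraries, less than the members in each group. Primary-led members held 233 to 246 CPM in the wild type and 11.96 to 22.7 CPM in the knockout (-4.21), below the free RNA of the same groups. In the non-dividing cells of the same rule Chil3 was also lower in the knockout (-2.07, adjusted p = 0.00122). Chil3 has near-identical relatives in the genome, so its reads may be shared with them.

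Camp, Ngp and Fcnb of the secondary granule list and Elane, Mpo and Prtn3 of the primary list selected the members, so they are left out of the counts and their values are a description. Of the other 7 secondary granule genes, Chil3 alone passed, by edgeR and by DESeq2 (background 0.306% for lower genes), and their median was -0.01 against 0.01 over all genes tested. Camp was at 55302, 44524 and 37207 CPM against 42877, 26658 and 39674 CPM, with overlapping ranges. Lcn2, outside the rule, differed by -0.01 ± 0.22 (adjusted p = 0.992). Lyz2 differed by -0.26 ± 0.19. None of the other 7 primary granule genes passed by edgeR or DESeq2, and 0 had an unadjusted p under 0.05 (median -0.08). Elane was at 4738, 7351 and 4897 CPM against 4591, 5281 and 5278 CPM, and Mpo at 1813, 2891 and 1899 against 1774, 2667 and 1866 CPM. Ctsg, outside the rule, differed by 0.07 ± 0.19 (adjusted p = 0.889).

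Among 12 mature neutrophil genes, 2 passed, both lower (0.306% of all genes), and 7 were lower at an unadjusted p under 0.05 (9.9% of all genes). All 12 had a negative value (median -0.61, against 0.01 over all genes tested). The list was chosen with earlier results of these data known, and its values come from the same cells, so they are not 12 separate observations. DESeq2 called 4 of them lower, the same 2 with S100a6 and S100a8, beside 2.37% of all genes. S100a8 and S100a9 were not highest in mature neutrophils, with 54198 and 77671 unscaled CPM there and 110396 and 137076 in the non-dividing cells. The other listed genes were higher in mature neutrophils than in the non-dividing cells, but the gate on mature neutrophils used Csf3r, Cxcr2, Il1r2 and G0s2. Retnlg (a resistin-like secreted protein, chr16:48872621-48874496) was at 984, 660 and 488 CPM in the wild type and 193, 236 and 273 CPM in the knockout (-1.60 ± 0.23, adjusted p = 0.0132). Ccl6 (a CC chemokine, chr11:83587882-83593087) was at 48.8, 42.4 and 33.9 against 20.2, 18.9 and 17.0 CPM (-1.17 ± 0.16, adjusted p = 0.00733). Neither gene overlapped between the groups. Both stood below their level in the free RNA of the same libraries, which held 1347 to 2627 CPM of Retnlg in the wild type and 368 to 658 CPM in the knockout, and 164 to 232 and 105 to 306 CPM of Ccl6. The part of free RNA in these 2 differences, and in the rest of the list, was not tested. Retnlg lost its call without any one of the knockout libraries (adjusted p = 0.0605 to 0.101) and with the replicate number as a block. Ccl6 lost its call without knockout replicate 2 (0.0633) or 3 (0.0851) and in secondary-led members alone (0.068). S100a8 was at 101601, 83712 and 56227 against 61147, 35976 and 55194 CPM (-0.67 ± 0.25, edgeR adjusted p = 0.231, DESeq2 adjusted p = 0.0416), and S100a9 differed by -0.53 ± 0.21. The groups overlapped in S100a8.

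**Figure D4:**
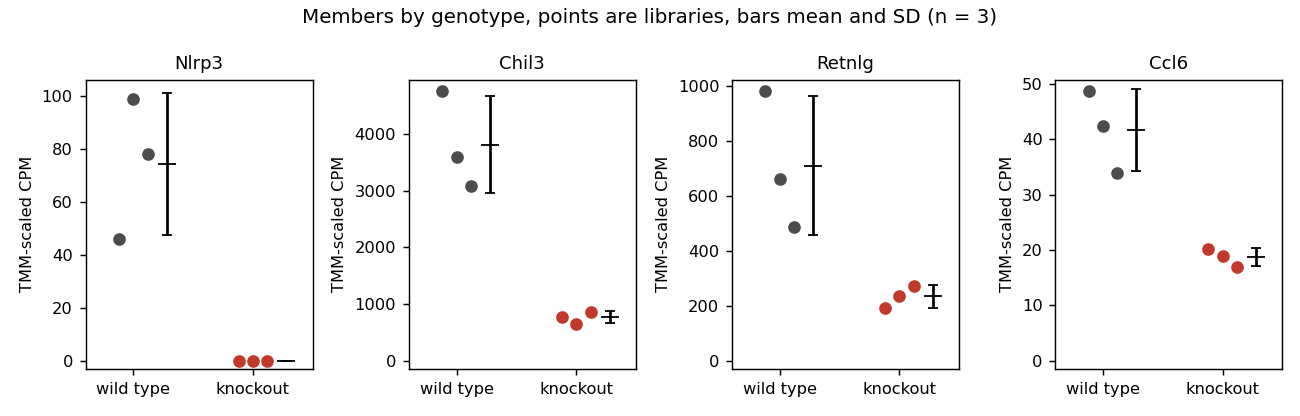
TMM-scaled CPM (y axes, linear, from 0) of Nlrp3, Chil3, Retnlg and Ccl6 in the members; each point is a library (3 wild type, grey, and 3 knockout, red), and the bar is the mean ± SD. The groups do not overlap in any of the 4 genes, and the 3 knockout libraries of Nlrp3 lie at 0.

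No gene of the replication and mitosis lists, which leave out Mki67 and Top2a, was called. None of 24 DNA replication genes and none of 24 mitosis genes passed by edgeR or DESeq2, with medians of 0.05 and 0.17. At an unadjusted p under 0.05, 2 replication genes were lower and 5 mitosis genes higher, against 9.9% of all genes lower and 7.12% higher. Mki67 and Top2a selected the members and are given as a description only. Mki67 was at 308, 274 and 282 CPM against 324, 294 and 323 CPM, and Top2a at 307, 298 and 391 against 440, 418 and 422 CPM. The groups overlapped in Mki67 and not in Top2a. Pcna, the replication clamp, differed by -0.16 ± 0.10, and Ube2c, an ubiquitin-conjugating enzyme of mitotic exit, by 0.08 ± 0.14. Of 14 genes of cell cycle entry and exit none passed by either tool (median 0.18), with 3 higher and 1 lower at an unadjusted p under 0.05. Ccnd3 differed by -0.26 ± 0.19 and Cdkn2d by 0.03 ± 0.13.

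Regulators of granulopoiesis were examined next. Beside the counts given here, 9.9% of all genes tested were lower and 7.12% higher at an unadjusted p under 0.05. DESeq2 called 2.37% of all genes lower. None of 11 transcription factors, Cebpe left out, passed by edgeR or DESeq2 (median 0.06), and 2 were higher at an unadjusted p under 0.05. Cebpe, which selected the members and is given as a description, was at 506, 411 and 348 CPM against 391, 340 and 436 CPM. Spi1 (PU.1) differed by -0.02 ± 0.15, Cebpb by -0.50 ± 0.26 and Cebpd by -0.09 ± 0.15. None of 8 growth factor receptor genes passed by either tool (median -0.21, 3 lower at an unadjusted p under 0.05), among them Csf3r, the receptor for G-CSF (-0.22 ± 0.15), and Kit (0.57 ± 0.29). None of 8 retention and egress genes passed by edgeR (median 0.15, 1 lower at an unadjusted p under 0.05), whereas DESeq2 called Selplg lower, and Cxcr4 differed by 0.34 ± 0.21. The tertiary granule list (median -0.16), the NADPH oxidase list (-0.16) and ribosome biogenesis (0.09) had no gene called by either tool, with 3, 2 and 0 genes at an unadjusted p under 0.05, and Cybb differed by 0.45 ± 0.14 (adjusted p = 0.172). The interferon response list, 11 genes, had none by edgeR and Irf7 lower by DESeq2, with a median of -0.76 and with 2 genes higher and 4 lower at an unadjusted p under 0.05. Ifitm3, an antiviral membrane protein, differed by -0.77 ± 0.25 (adjusted p = 0.174).

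Under library totals the list medians shifted with the median of all genes. They became positive for primary granule (0.15), secondary granule (0.22), tertiary granule (0.07), growth factor receptor (0.02) and NADPH oxidase genes (0.06). Relative to the median of all genes they hardly moved, from -0.10 to -0.10, -0.02 to -0.03, -0.17 to -0.18, -0.22 to -0.22 and -0.18 to -0.18 in the same order. The median of the mature neutrophil list was -0.63 and -0.65 relative to all genes.

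**Figure D5:**
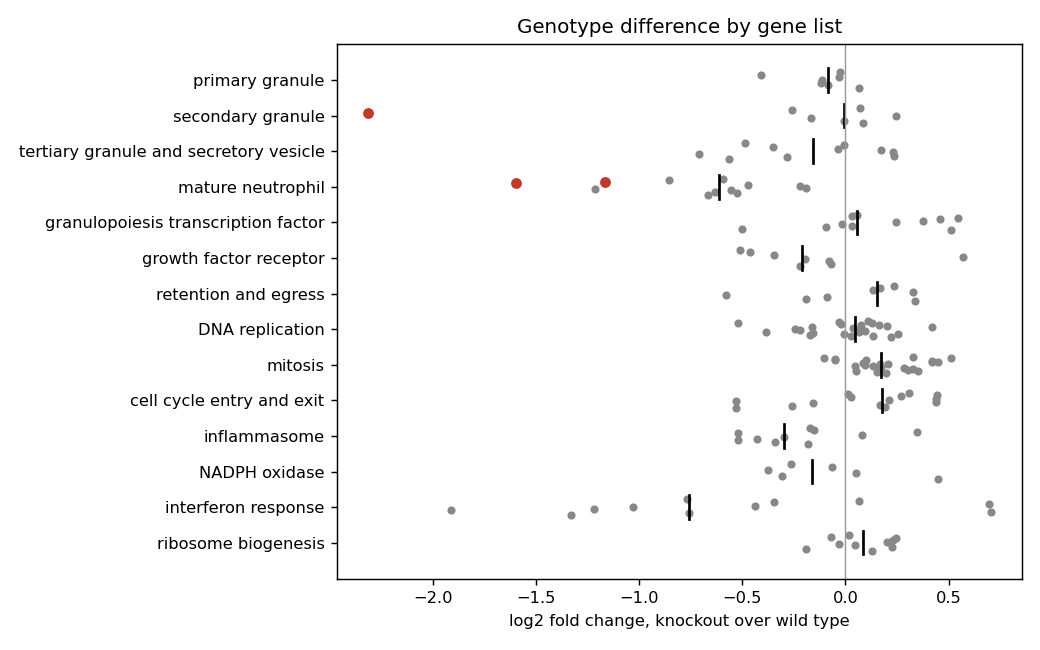
Each point is a gene tested; the x axis is log2 of knockout over wild type in the members, rows are the 14 gene lists without the sex-linked list and without the genes that selected the members, red points passed the adjusted threshold and black bars are list medians (Nlrp3 counts in the median of its list but is not drawn). Chil3 at -2.31, Retnlg at -1.60 and Ccl6 at -1.17 are the 3 red points, and all 12 mature neutrophil genes lie left of 0.

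Other genes passed. Groups did not overlap in any of the 53 called genes, nor in 21.1% of all genes tested. Tpm3-rs7, a tropomyosin gene copy whose reads may be shared with Tpm3, was at 215, 96.2 and 228 CPM against 4.04, 2.39 and 3.22 CPM (-5.95 ± 0.38). Wdfy1, an endosomal adaptor of Toll-like receptors, was at 44.6, 45.5 and 48.9 against 14.3, 12.8 and 14.1 CPM (-1.77 ± 0.12, adjusted p = 6.20e-05). Ss18l2 was at 61.3, 60.4 and 50.7 against 27.2, 27.2 and 23.9 CPM (-1.14 ± 0.13), and Hacd4, an enzyme of long fatty acid elongation, at 41.7, 29.1 and 32.7 against 20.2, 10.4 and 14.7 CPM (-1.29 ± 0.23). Hacd4 lost its call without wild-type replicate 1 or knockout replicate 2 or 3 (adjusted p = 0.0981 to 0.224). Wdfy1, Tpm3-rs7 and Ss18l2 kept their calls in each of the 12 alternatives checked for them.

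Outside the X chromosome, 1 gene that rose met the naming rule. H2-Q7, a class Ib histocompatibility gene with near-identical neighbours, was at 15.9, 15.4 and 15.4 CPM in the wild type and 37.5, 38.4 and 61.9 CPM in the knockout (1.57 ± 0.19, adjusted p = 0.00379). It lost its call in secondary-led members alone (1.36, adjusted p = 0.0665). On the X chromosome, Eif2s3x (translation initiation) rose by 0.90 ± 0.15 and Kdm6a (a histone demethylase) by 0.81 ± 0.14. Both lost their call in several settings that left out a library.

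Of the 53 called genes, 44 could be tested in the non-dividing cells of the same rule. All 44 had the same sign there and 27 passed, beside 81 of 9188 genes tested there (0.882%). Each library supplied both sets of cells, so they are not independent. The genes were chosen for their difference in these libraries, and the share of all genes with the same sign is not given here. The count of same signs is therefore no separate test.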

How the data were processed

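The authors sequenced 10x Chromium 3′ libraries of entheses and deposited raw UMI count matrices. Per the labels, Cell Ranger 2.1.1 and mm10 were used, whereas the file headers name Cell Ranger 4. All 32285 genes of the 6 count tables were read, and gene positions come from GENCODE M21 (GRCm38, the same assembly as mm10), matched by Ensembl identifier.

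Barcodes were selected by the rule given in the results. The members and the gene lists were chosen with earlier results of these data known. UMIs of the members were summed per library, from 2683950 to 15316891 UMIs, because cells are not replicates. The sums were tested with edgeR 4.0.16 (filterByExpr, TMM, quasi-likelihood fit). DESeq2 1.42.0 was an alternative. Counts were simulated for 11439 genes of this comparison, with changes put into 200 genes that had a mean of at least 20 CPM. In those genes, 95% of changes of 1 log2 unit and all changes of 2 were recovered, with 12 false calls. Recovery was not measured for genes below that level. Apart from these changes every simulated library had the same mean profile, with the fitted dispersion of each gene. Outlying libraries and differences in free RNA were therefore not simulated, and recovery in the real libraries may be lower. Shares were compared by an exact permutation test over the 20 assignments (Python 3.11.15). The study describes its samples as independent replicates and the entheses as pooled, and how animals were divided among libraries was not given in the sources used here, so p-values measure the spread between these libraries. Named genes were the rule genes and markers, sex-linked genes, up to 10 called genes per direction (mean of at least 20 CPM, groups not overlapping), called list genes, the 4 highest of each list and the 10 highest overall. Genes described along the stages were picked after their values had been seen. Free RNA was the sum of barcodes with at most 100 UMIs. The study names Student's t test for its single-cell scores without stating the unit, and that test was not used. Other cell types of the libraries were not analysed here beyond the comparison sets.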

Additional observations from a re-analysis of the deposited data

Results flagged for a closer look

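In 6 of 10976 genes (0.0547%, with 628 at an unadjusted p under 0.05), the genotype difference in dividing precursors differed from that in the non-dividing cells of the same rule, by the interaction term of edgeR's quasi-likelihood test. The differences of the log2 fold changes were -9.21 for Prg2, -5.91 for Prg3, -6.53 for Prss34, -5.79 for Col10a1, 1.90 for Cmc2 and 1.47 for H2-Q7, each past an adjusted p of 0.05. Both sets of cells came from the same libraries.

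Prg2 and Prg3 are eosinophil granule genes, Prss34 is a basophil and mast cell protease and Col10a1 is a collagen of hypertrophic cartilage. Levels here are unscaled. Prg2 had 563, 73 and 1514 UMIs in wild-type and 0, 355 and 4 UMIs in knockout members, and the 5 highest barcodes held 98.3 to 100% of them wherever there were any. The non-dividing cells held 4, 0 and 1 against 2, 331 and 4 UMIs of Prg2, so that knockout replicate 2 held most of them. Prss34 had 15, 85 and 680 against 0, 10 and 6 UMIs, and its 5 highest barcodes held 99.4% of them in wild-type replicate 3 but 33.3% in replicate 1. The non-dividing cells held 9, 1 and 238 against 0, 204 and 109 UMIs of it. Col10a1 had 546, 0 and 9 against 0, 227 and 6 UMIs, in 34 members of wild-type replicate 1 (94.7% in the 5 highest) and 114 members of knockout replicate 2 (51.1%). In the non-dividing cells it had 31, 0 and 7 against 1, 608 and 5 UMIs. Prg3 had 75, 37 and 199 against 1, 73 and 7 UMIs in members and 1, 1 and 0 against 2, 22 and 1 UMIs in the non-dividing cells.

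Cmc2, which encodes a mitochondrial protein, was at 108 to 117 CPM in wild-type and 81.4 to 92.8 CPM in knockout members, and at 53.1 to 56.8 and 8.72 to 18.8 CPM in the non-dividing cells. H2-Q7 was at 13.8 to 15.5 against 38.0 to 65.2 CPM in members and at 13.2 to 17.5 against 14.1 to 24.5 CPM in the non-dividing cells.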

How the results depend on the processing

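The number of genes called was 53 and stayed within 1.5 times of it for RLE size factors (52), library totals (65), UMIs thinned to the smallest library (48) and limits of 2000 UMIs, 5% mitochondrial UMIs, 2 division UMIs or 1% granule UMIs. It was 794 without a filter on low counts, 343 with DESeq2, 101 without barcodes holding markers of another cell type, and 80 in secondary-led and 114 in primary-led members, the last 2 and library totals chosen after seeing the data. Leaving out a library gave 30 to 1272 genes. Replicate numbers did not pair the libraries (correlations of deviations -0.159 to -0.0757), and with the replicate number as a block 44 genes passed, 38 of them shared with the 53. The causes were not tested. Knockout replicate 1 supplied the fewest UMIs, which limits genes of low level. Retnlg, Eif2s3x and Kdm6a lost their call under the block.

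The difference in share of kept barcodes turned to 0.101 percentage points with granule genes at 1% or more and to 0.422 after thinning to 1000 UMIs, was -1.27 without barcodes holding markers of another type, and lay from -2.10 to 1.82 when a library was left out. The share among neutrophil-lineage barcodes stayed higher in the knockout in every alternative, by 5.78 without such barcodes and 8.12 at 2000 UMIs against 12.3 (7.37 to 18.5 percentage points when a library was left out). For 18 named genes, each checked in at most 12 of the alternatives, 181 of 215 values kept their call, 34 lost it and none changed sign.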
